A study of Mus musculus with 2 samples.

Results

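The 10 genes described here, mt-Nd1, mt-Nd2, mt-Nd4, mt-Nd5, mt-Cytb, mt-Co1, mt-Co3, mt-Atp6, mt-Rnr1 and mt-Rnr2, are transcribed from the mitochondrial chromosome of the mouse. They are a list of symbols, with no threshold on a measured value, and make up 10 of the 27842 genes listed for these bone marrow cells and 10 of the 30 mitochondrially encoded symbols among them. Of the 10, 8 code for proteins and 2 are ribosomal RNAs. All 10 were listed in the T1D table and 9 in the control table, where mt-Co3 had no row and was set to 0.

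Single-cell RNA sequencing was done on bone marrow from the femurs and tibias of C57/BL6 mice in 2 groups of 1 library each. The mice behind the T1D (type 1 diabetes) library had received streptozotocin, which kills the beta cells that make insulin, and their blood sugar was high. Those behind the control library had received sodium citrate solution, and their blood sugar was normal. Age, sex and the number of mice pooled are not in the labels. With 1 library per group, no difference below has a replicate check, no test was possible, and the treatment cannot be told apart from anything else that differed between the 2 preparations. The intervals are 95% intervals and cover counting error only, since counts of 1 library are not independent animals. They are exact, except for the log2 ratios of protein-coding to ribosomal RNA counts, where they are a normal approximation.

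Mitochondrial DNA is transcribed into long precursors from both strands, which are cut at the transfer RNAs into separate messenger, ribosomal and transfer RNAs. The messengers encode core subunits of the respiratory chain and of ATP synthase, and they are translated on mitochondrial ribosomes built around the small-subunit RNA mt-Rnr1 and the large-subunit RNA mt-Rnr2. Marrow holds cells that differ widely in their use of mitochondria, and neutrophils are known for drawing their energy mostly from glycolysis.

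The T1D library held 52022458 counts over 15771 barcodes and the control library 57494166 counts over 12880 barcodes, and 253 barcodes occurred in both. After cells with under 200 genes or over 20% mitochondrial counts were left out, 15579 T1D and 12803 control cells remained. Kept T1D cells were shallower, with a median of 2757 counts against 3633 in control cells, and held more nuclear ribosomal RNA, at 34.0% of counts against 30.3%. Both gaps run through the classes of cells as well: the median total was lower in T1D cells in 9 of 9 classes compared and the share of nuclear ribosomal RNA was higher in 9 of 9. What part these gaps have in the differences below was not tested beyond the comparisons at like depth. Levels are CPM, the counts of a gene in proportion to all counts of the cells summed.

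Some mitochondrial genes have near-identical copies in the nuclear genome, and their counts cannot be read without that. Of the stretches of 50 bases in mt-Co3, 99.9% also occur in an annotated nuclear transcript, almost all of them in Gm28437 on chromosome 1. The values are 99.5% for mt-Atp6 (Gm10925, chromosome 1), 62.2% for mt-Nd4 (Gm28439, chromosome 1) and 51.1% for mt-Co1 (Gm29216, chromosome 1). They are 8.19% for mt-Nd2 (Gm13339, chromosome 2), 7.61% for mt-Nd5 (Gm4076, chromosome 13) and 1.04% for mt-Rnr2 (Gm20594, chromosome 6). Each share is over all nuclear transcripts, and the copy named is the one with the most stretches. For mt-Co1 others lay in Gm11512 and Gm13340, and the alignment to Gm29216 covered 31.3% of the gene. Stretches of mt-Atp6 were also in AC124578.3, and those of mt-Nd5 also in Gm11407. No such stretch of mt-Nd1, mt-Cytb or mt-Rnr1 was found in a nuclear transcript. The contrast is shown by 60 bases each of a fully copied gene and of a partly copied one, from the GENCODE M21 transcripts (GRCm38), with bases that differ between gene and copy in capitals. The first pair starts at base 1 of both transcripts and is identical, and the second starts at base 529 of mt-Nd2 and base 1 of its copy and has 1 mismatch.
mt-Co3: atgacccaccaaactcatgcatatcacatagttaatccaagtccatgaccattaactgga
Gm28437: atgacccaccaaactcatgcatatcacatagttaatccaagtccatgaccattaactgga
mt-Nd2: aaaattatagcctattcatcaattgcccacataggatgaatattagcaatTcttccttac
Gm13339: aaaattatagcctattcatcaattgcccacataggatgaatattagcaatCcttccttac

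The genes with almost all of their sequence copied were nearly absent from both tables. mt-Co3, a subunit of cytochrome c oxidase (complex IV), had 2 counts in kept T1D cells and 0 in control cells, and no ratio is given. mt-Atp6, a membrane subunit of ATP synthase, had 2 counts in T1D and 7 in control cells, a ratio of 0.317 with an interval of 0.0321 to 1.66 that includes no difference. Among the mitochondrial genes outside the 10, mt-Co2 (100% shared) had 3 and 2 counts, mt-Nd4l (98.8% shared) 0 and 1, and mt-Nd3 (98.0% shared) 63 and 249, T1D cells first in each. mt-Atp8 departs from this order, with 0 and 1 counts although none of its 50-base stretches was found in a nuclear transcript; it overlaps mt-Atp6 by 43 of its 204 bases. The 7 nuclear copies looked up by symbol held 60 counts in T1D and 74 in control cells together. How reads that match several places were counted is not given in the sources used here, and its part in these levels was not tested.

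**Figure D1:**
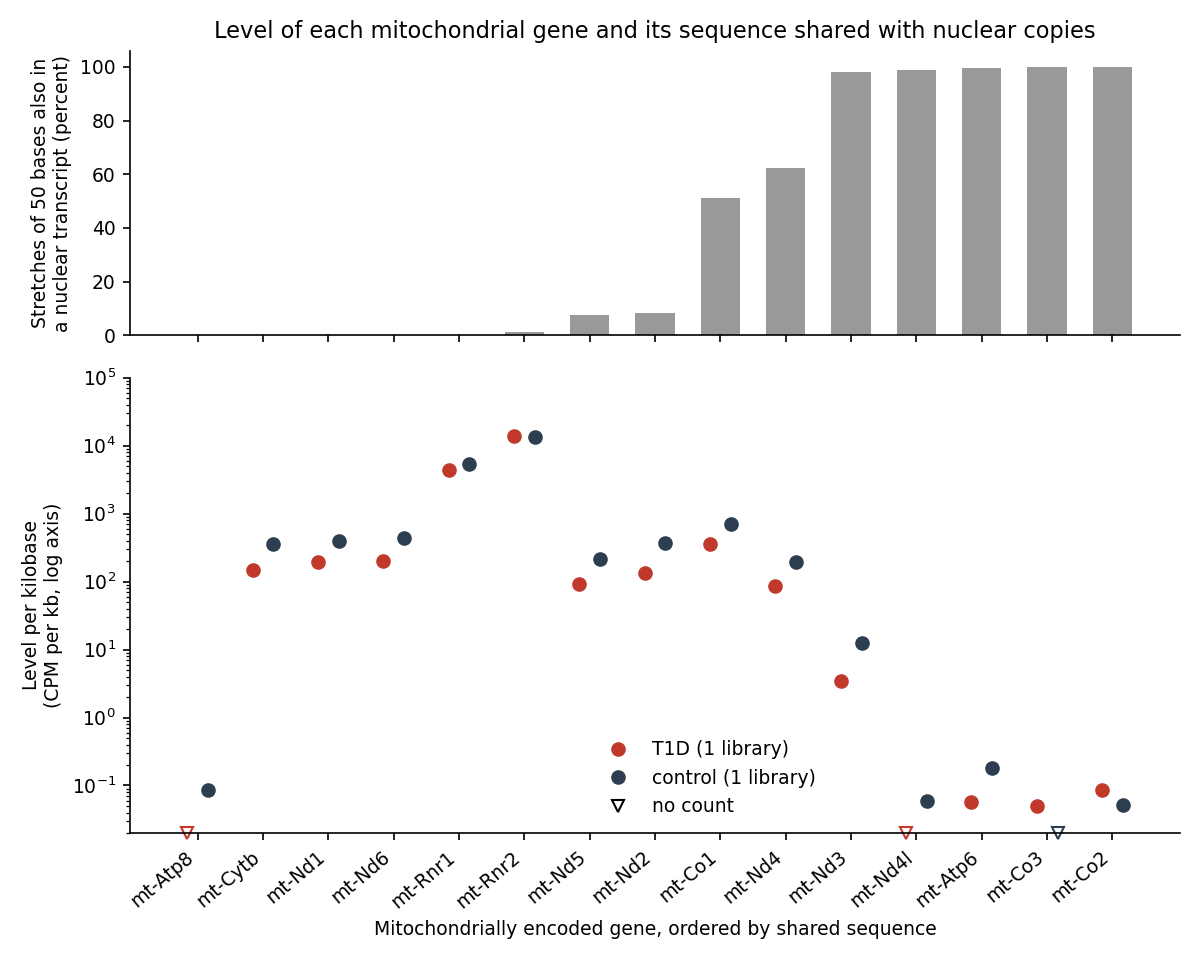
For each mitochondrial gene, the bars (top) give the percent of its 50-base stretches found in an annotated nuclear transcript, and the points (bottom) its level per kilobase of transcript over all kept cells in the T1D library (left point) and the control library (right point), on a log axis, with an open triangle for no count. Genes at 98.0% or more lie at 12.5 CPM per kilobase or below, and mt-Atp8, with 0%, also lies at the bottom.

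The 6 protein-coding genes with usable counts were all lower in the T1D library over all kept cells. Of the complex I (NADH dehydrogenase) subunits, mt-Nd1 had 185 CPM in T1D and 377 CPM in control cells, 2.04-fold lower (interval 1.99 to 2.09). mt-Nd2 had 140 CPM in T1D and 378 CPM in control cells, the widest gap of the 6, with a log2 ratio of -1.41. mt-Nd4 had 120 CPM in T1D and 269 CPM in control cells, 2.24-fold lower (2.17 to 2.30). Reads in the copied part of mt-Nd4 could also belong to Gm28439, so its level is uncertain. mt-Nd5 had 168 CPM in T1D and 395 CPM in control cells, 2.36-fold lower (2.30 to 2.42). mt-Cytb, the only mitochondrially encoded subunit of complex III, had 167 CPM in T1D and 404 CPM in control cells, 2.42-fold lower (2.36 to 2.48). mt-Co1, the catalytic subunit of complex IV, was the most abundant messenger and the least lowered, with 558 CPM in T1D and 1070 CPM in control cells, 1.92-fold lower (1.89 to 1.95).

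The ribosomal RNAs moved otherwise. mt-Rnr1 had 4208 CPM in T1D and 5130 CPM in control cells, a ratio of 0.820 (0.816 to 0.825). mt-Rnr2, the most abundant of the 10, had 21865 CPM in T1D and 21310 CPM in control cells, a ratio of 1.03 (1.02 to 1.03), and this direction turned in 3 of 13 other ways of processing. Per kilobase of transcript, mt-Rnr2 stood at 13821 CPM in T1D and 13470 CPM in control cells. The same quantity was 361 and 692 CPM per kilobase for mt-Co1 and 91.9 and 217 CPM per kilobase for mt-Nd5, again T1D before control. Whether counts grow with transcript length in these libraries was not tested. Values per kilobase thus describe counts per length and do not compare the abundance of different transcripts.

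**Figure D2:**
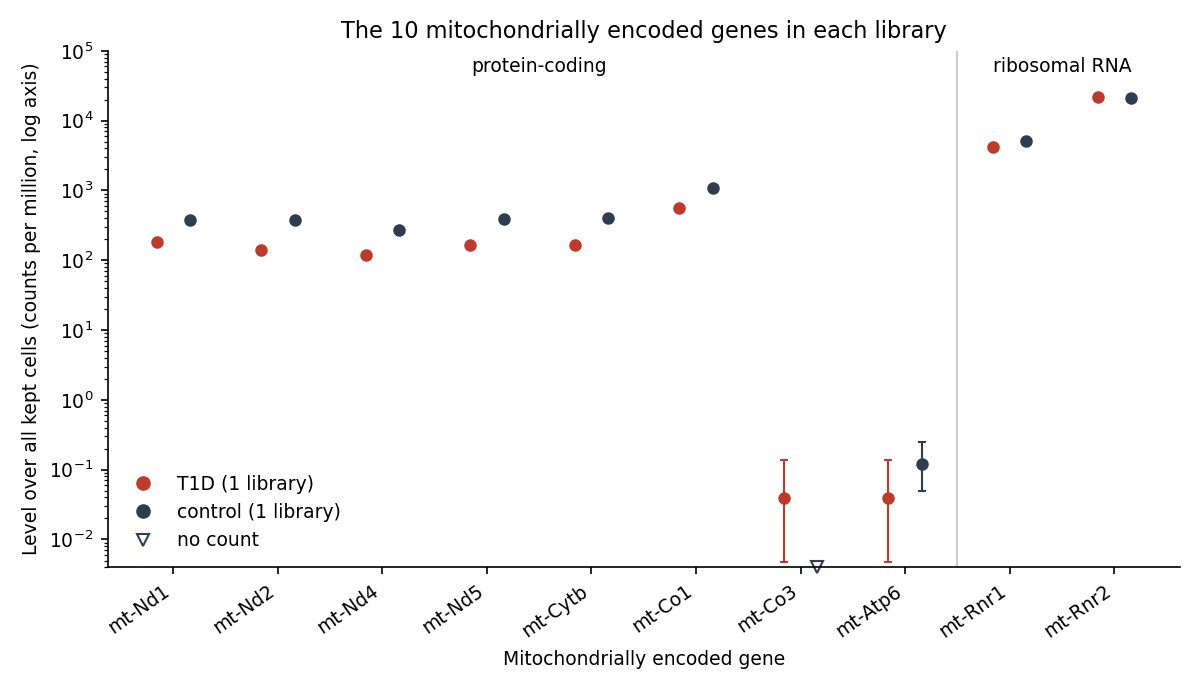
Level of each of the 10 genes over all kept cells in the T1D library (left point of each pair) and the control library (right point), as CPM on a log axis with exact 95% intervals of counting error, mostly smaller than the points, and an open triangle for no count. The 6 detected messengers are lower in T1D, mt-Rnr2 is level with control, and mt-Co3 and mt-Atp6 lie near 0.

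A gene was called past the size rule when its log2 ratio, with 5 CPM added to both libraries, was at least 1 in size, the higher of its 2 levels was 50 CPM or more, and its counting interval was clear of no difference. Over all kept cells, 5 of the 10 genes were past it, all lower in T1D: mt-Nd1, mt-Nd2, mt-Nd4, mt-Nd5 and mt-Cytb. By the same rule 2.55% of the 2779 genes at 50 CPM or more in either library were lower in T1D and 0.936% were higher. mt-Co1 missed the rule at a log2 ratio of -0.93. The median log2 ratio was -1.17 over the 6 detected protein-coding genes and -0.08 over all 2779. The size of these calls depends on which cells are summed and with what weight. In another setting only cells of the 9 compared classes were kept, and the T1D class shares were set to those of the control library. There mt-Nd2 alone stayed past a log2 ratio of 1 in size, at -1.11. mt-Nd1 was at -0.80, mt-Nd4 at -0.85, mt-Nd5 at -0.94 and mt-Cytb at -0.95. The part of the shares and that of the cells left out were not told apart. mt-Nd1 was close to the threshold and fell short of it under several other settings as well: -0.999 with a limit of 10% mitochondrial counts, -0.96 with at least 500 genes per cell or at or above the lowest control total, -0.94 without nuclear ribosomal RNA in the totals, -0.89 with TMM scaling and -0.88 with DESeq2 scaling. The 6 genes remained below 0 in 13 of 13 other ways of processing.

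Summed, the 8 protein-coding genes had 1338 CPM (1328 to 1348) in the T1D library and 2894 CPM in the control library, a log2 ratio of -1.11. The 2 ribosomal RNAs together had 26073 CPM in T1D and 26440 CPM in control cells, a log2 ratio of -0.02. The protein-coding counts thus came to 5.13% (5.09 to 5.17) of the ribosomal RNA counts in T1D cells and 10.9% in control cells, a quantity that does not depend on how a library is scaled. The log2 ratio of the protein-coding sum was -0.87 over the 9 compared classes with T1D class shares set to those of control. With DESeq2 scaling it was -0.98, and both values were short of the size rule. The sign of the ribosomal RNA difference was not stable: its log2 ratio lay between -0.18 and 0.11 over 12 other ways of processing.

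Of the mitochondrial messengers outside the 10, mt-Nd6 had the most counts. mt-Nd6, the complex I subunit encoded on the opposite strand and with no 50-base stretch shared, had 105 CPM in T1D and 225 CPM in control cells, a log2 ratio of -1.07. It overlaps mt-Nd5 by 14 bases, and whether reads were counted by strand is not given. Its counts may thus include reads of the other strand, which was not tested. The transfer RNA symbols summed to 34.0 CPM in T1D and 32.5 CPM in control cells, and the interval of their ratio, 0.979 to 1.12, includes no difference. By class the transfer RNA sum was above control in 8 of 9, and the interval was clear of no difference in granulocyte-monocyte progenitors, with a ratio of 1.29 (1.06 to 1.57).

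To see whether the difference lay in a few kinds of cell, cells were grouped into 29 clusters without the mitochondrial genes and named from marker genes. Each name carries the sense of "like", since no sorted reference was used. In 9 named classes both libraries held at least 100 cells. They were mature neutrophils (4980 T1D and 1985 control cells), immature neutrophils (3096 and 1905), monocytes (2311 and 1891), granulocyte-monocyte progenitors (798 and 412), T or NK cells (683 and 511), mature B cells (534 and 1079), erythroid cells (247 and 292), basophil/mast cells (128 and 149) and macrophages or dendritic cells (116 and 224). The T1D mature neutrophils lay mostly in other clusters than the control ones (2804 and 54, 2086 and 75, and 90 and 1856 cells, T1D and control), and 501 of the control mature B cells formed a cluster with no T1D cell. The macrophages or dendritic cells pooled a cluster led by H2-Eb1, H2-Ab1 and H2-Aa, with 57 T1D and 171 control cells, and one led by C1qa, C1qc and Mrc1, with 59 T1D and 53 control cells. The T or NK cells pooled clusters of 391 T1D and 362 control cells and of 292 T1D and 149 control cells. A class value thus also carries the mix of its clusters. The 1172 pro/pre-B cells were all in the control library and enter no comparison.

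The summed protein-coding level was lower in T1D in 9 of 9 classes, each with an interval clear of no difference. It was also lower in 15 of 15 single clusters with at least 100 cells in both libraries. None of the 15 was a cluster of mature neutrophils, or of macrophages or dendritic cells. The summed level was 2986 CPM in T1D and 5748 CPM in control mature B cells, and 2811 CPM in T1D and 5088 CPM in control T or NK cells. Erythroid cells had 2084 CPM in T1D and 4143 CPM in control. These 3 classes held the highest levels in the control library. Monocytes had 1785 CPM in T1D and 3433 CPM in control, macrophages or dendritic cells 1438 CPM in T1D and 3419 CPM in control, and granulocyte-monocyte progenitors 2244 CPM in T1D and 3404 CPM in control. In the control library these 3 classes could not be ordered, since their neighbouring intervals overlap. In the T1D library their intervals are apart, and the progenitors stood highest of the 3. Basophil/mast cells had 1200 CPM in T1D and 2289 CPM in control, immature neutrophils 758 CPM in T1D and 1226 CPM in control, and mature neutrophils 490 CPM in T1D and 689 CPM in control. Both libraries thus placed mature B cells highest and mature neutrophils lowest, 6.10-fold apart in T1D and 8.34-fold apart in control.

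Among the classes the log2 ratio ran from -1.25 in macrophages or dendritic cells to -0.49 in mature neutrophils. Neither cluster of the macrophages or dendritic cells held 100 cells in both libraries, and their shares of the class differed between libraries, so the -1.25 has no value within a single cluster beside it. The same holds for the -0.49: no mature neutrophil cluster held 100 cells in both libraries, and T1D and control cells lay mostly in different ones. Over the 15 clusters the log2 ratio ran from -1.03 to -0.51. Of the classes highest in the control library, mature B cells stood at -0.94, T or NK cells at -0.85 and erythroid cells at -0.99. Only macrophages or dendritic cells had a wider gap than erythroid and mature B cells. Granulocyte-monocyte progenitors, at rank 3 in T1D but at rank 6 and not set apart from ranks 4 and 5 in control, had -0.60. The level in either library enters the ratio, so ranks and gaps are not independent. Whether the gap differs between classes could not be tested with 1 library per group.

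**Figure D3:**
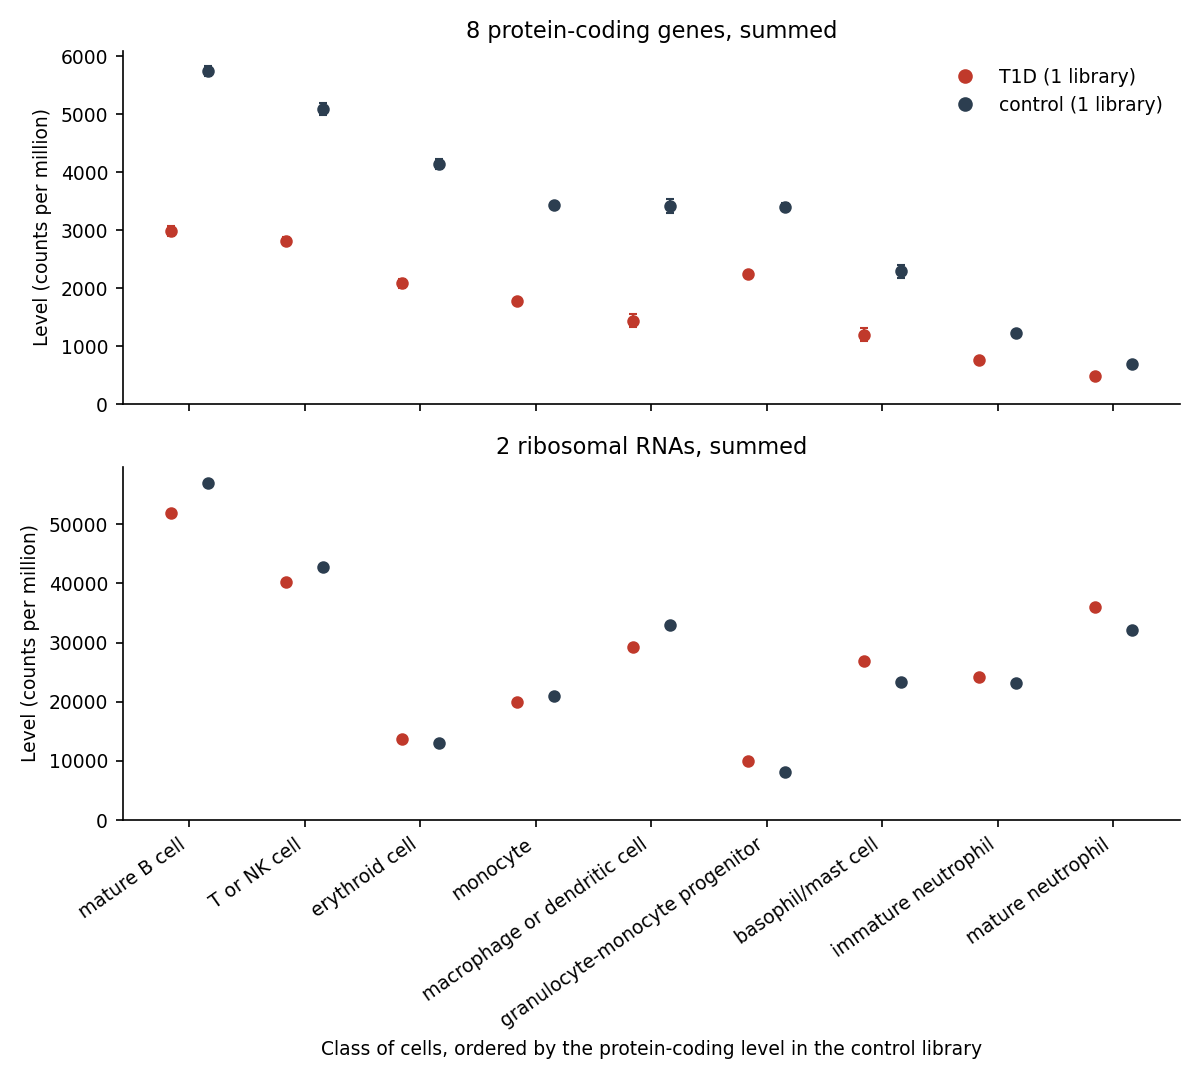
Summed level of the 8 protein-coding genes (top) and the 2 ribosomal RNAs (bottom) in CPM, by class of cells, with the T1D library left of the control library and exact 95% intervals of counting error. The protein-coding level is lower in T1D in each of the 9 classes, while the ribosomal RNA level is lower in 4 and higher in 5.

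The ribosomal RNA level followed the classes in another order and had no common direction. It was lower in T1D in 4 classes: macrophages or dendritic cells (29250 CPM in T1D and 33032 CPM in control), mature B cells (51974 and 56994 CPM), T or NK cells (40272 and 42708 CPM) and monocytes (19887 and 21040 CPM). It was higher in T1D in 5: granulocyte-monocyte progenitors (10066 CPM in T1D and 8163 CPM in control), basophil/mast cells (26859 and 23399 CPM), mature neutrophils (35960 and 32197 CPM), erythroid cells (13775 and 13074 CPM) and immature neutrophils (24154 and 23145 CPM). The log2 ratios ran from -0.18 to 0.30, and that of mature B cells turned from -0.13 to 0.0003 with DESeq2 scaling. These directions did not all hold within a class. Over the 15 single clusters the ribosomal RNA level was lower in T1D in 6 and higher in 9. In the larger T or NK cluster it was higher in T1D, with a ratio of 1.08 (1.06 to 1.09), and in the smaller one lower, with 0.962 (0.945 to 0.979). The immature neutrophils split into a cluster at 1.06 (1.05 to 1.07) and one at 0.954 (0.944 to 0.964). As given below, their level was lower in T1D in each range of total counts compared. Mature B cells split into a cluster at 0.928 (0.915 to 0.941) and one at 1.08 (1.07 to 1.10). The class ratios, 0.943 in T or NK cells and 0.912 in mature B cells, lay below both clusters given for each. These class values thus also carry the mix of clusters, and the mature B class includes the 501 control cells of a cluster with no T1D cell. Mature neutrophils, lowest of the 9 for messengers, were at rank 3 for ribosomal RNA in T1D and rank 4 in control, and granulocyte-monocyte progenitors were last in both.

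Within the ribosomal RNAs the 2 subunits parted. mt-Rnr1 was lower in T1D in 9 of 9 classes, with log2 ratios from -0.38 in macrophages or dendritic cells to -0.01 in basophil/mast cells, and 8 of the 9 intervals were clear of no difference. Its sign turned with scaling in basophil/mast cells and in mature neutrophils. mt-Rnr2 was lower in 4 classes and higher in 5, up to a log2 ratio of 0.41 in granulocyte-monocyte progenitors. Its sign turned with scaling in T or NK cells, mature B cells and monocytes, all close to 0. The ratio of mt-Rnr1 to mt-Rnr2 counts, free of scaling, was 19.2% in T1D and 24.1% in control over all kept cells. It was lower in T1D in 9 of 9 classes, by a log2 ratio of -0.48 in granulocyte-monocyte progenitors to -0.23 in mature B cells.

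The protein-coding to ribosomal RNA ratio was lower in T1D in 9 of 9 classes, and each interval was clear of no difference. Granulocyte-monocyte progenitors had the highest value, 22.3% (21.8 to 22.8) in T1D and 41.7% (40.9 to 42.6) in control. Erythroid cells followed with 15.1% in T1D and 31.7% in control, then monocytes with 8.98% in T1D and 16.3% in control. T or NK cells had 6.98% in T1D and 11.9% in control, mature B cells 5.74% and 10.1%, macrophages or dendritic cells 4.92% and 10.4%, and basophil/mast cells 4.47% and 9.78%. Immature neutrophils had 3.14% in T1D and 5.30% in control, and mature neutrophils 1.36% in T1D and 2.14% in control. The gap was widest in basophil/mast cells, with a log2 ratio of -1.13 (-1.28 to -0.98), and narrowest in mature neutrophils, with -0.65 (-0.71 to -0.59).

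**Figure D4:**
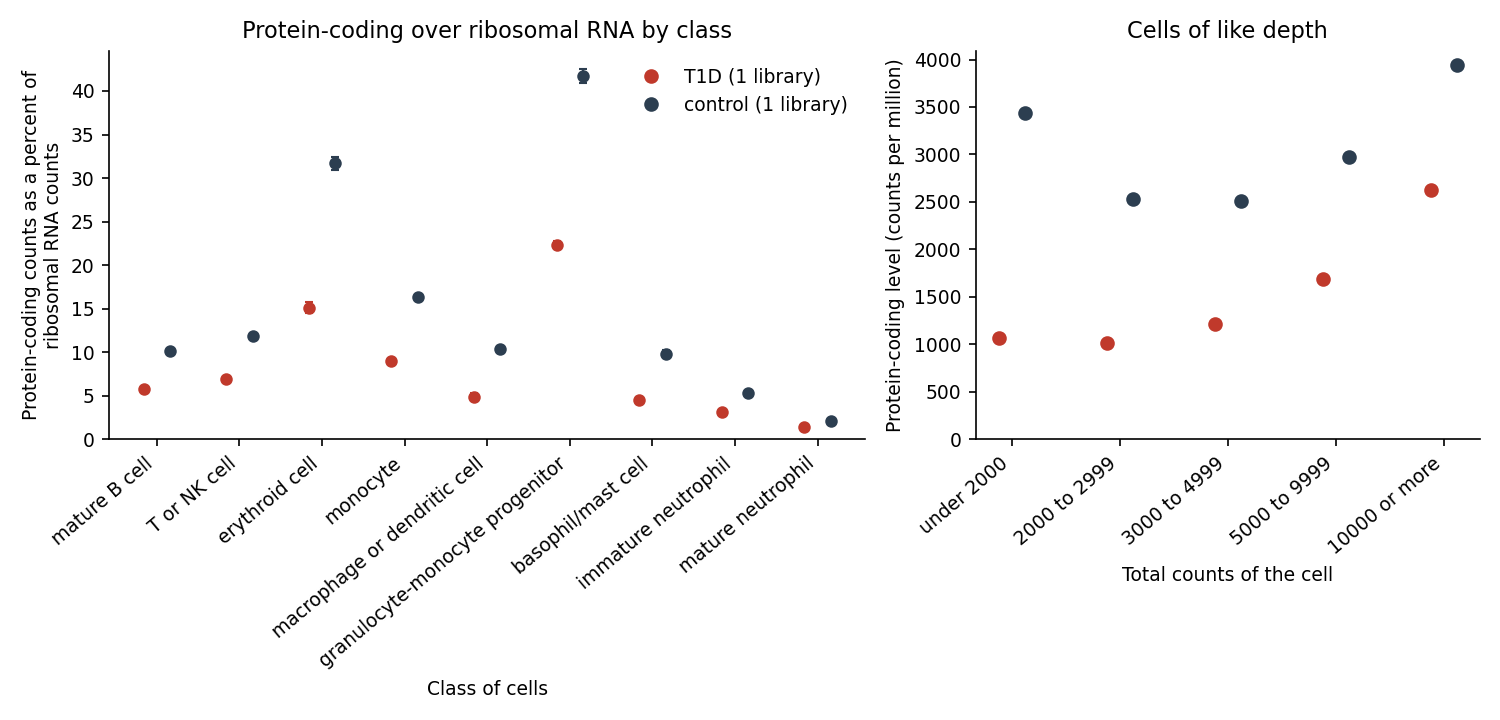
Left, summed protein-coding counts as a percent of ribosomal RNA counts by class, with the T1D library left of the control library and exact 95% intervals. Right, summed protein-coding level in CPM of cells whose totals fall in the same range, over all kept cells. T1D lies below control in each class and in each range of totals.

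Gene by gene, each of the 6 detected messengers was lower in T1D in 9 of 9 classes, with all 54 intervals clear of no difference, and 17 of these 54 values were past the size rule. mt-Nd2 was past it in 6 classes, mt-Nd5 in 4, mt-Cytb in 3, mt-Nd1 in 2, and mt-Nd4 and mt-Co1 in 1 each. All 17 were lower in T1D. In macrophages or dendritic cells all 6 were past it, in a class where 5.71% of genes were lower and 5.71% higher by the rule and whose 2 clusters were mixed unequally in the libraries. In mature B cells 3 were past it, with 5.54% of all genes lower and 1.37% higher. There were 2 each in T or NK cells (2.1% lower and 1.26% higher), basophil/mast cells (4.36% and 3.26%), erythroid cells (0.91% and 1.58%) and monocytes (0.934% and 1.8%). None was past it in granulocyte-monocyte progenitors (0.636% and 0.719%), immature neutrophils (0.373% and 1.26%) or mature neutrophils (2.52% and 1.14%). The median over the 6 was below that of all genes at 50 CPM or more in 9 of 9 classes.

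mt-Nd2 shows the spread between classes. It had 352 CPM in T1D and 721 CPM in control mature B cells, and 385 CPM in T1D and 823 CPM in control lymphocytes of the T or NK class. Erythroid cells had 270 CPM in T1D and 661 CPM in control. In monocytes it had 197 CPM in T1D and 459 CPM in control, and in granulocyte-monocyte progenitors 296 CPM in T1D and 528 CPM in control. It was lowest in mature neutrophils, with 27.2 CPM in T1D and 52.4 CPM in control. The control values lie above the T1D values in each class, and the log2 ratio ran from -1.39 in macrophages or dendritic cells to -0.82 in granulocyte-monocyte progenitors.

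mt-Co1 departed most in mature neutrophils, where it had 284 CPM in T1D and 326 CPM in control, a log2 ratio of -0.20, while mt-Nd4 stood at -0.98 and mt-Cytb at -0.87 in the same cells. mt-Co1 made up 57.9% of the protein-coding sum in T1D and 47.2% in control mature neutrophils, and 55.7% and 50.9% in immature neutrophils. Outside the neutrophils its share lay between 31.8% and 39.1%. Since 51.1% of its stretches are shared with nuclear transcripts, its level relative to the other messengers is uncertain.

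**Figure D5:**
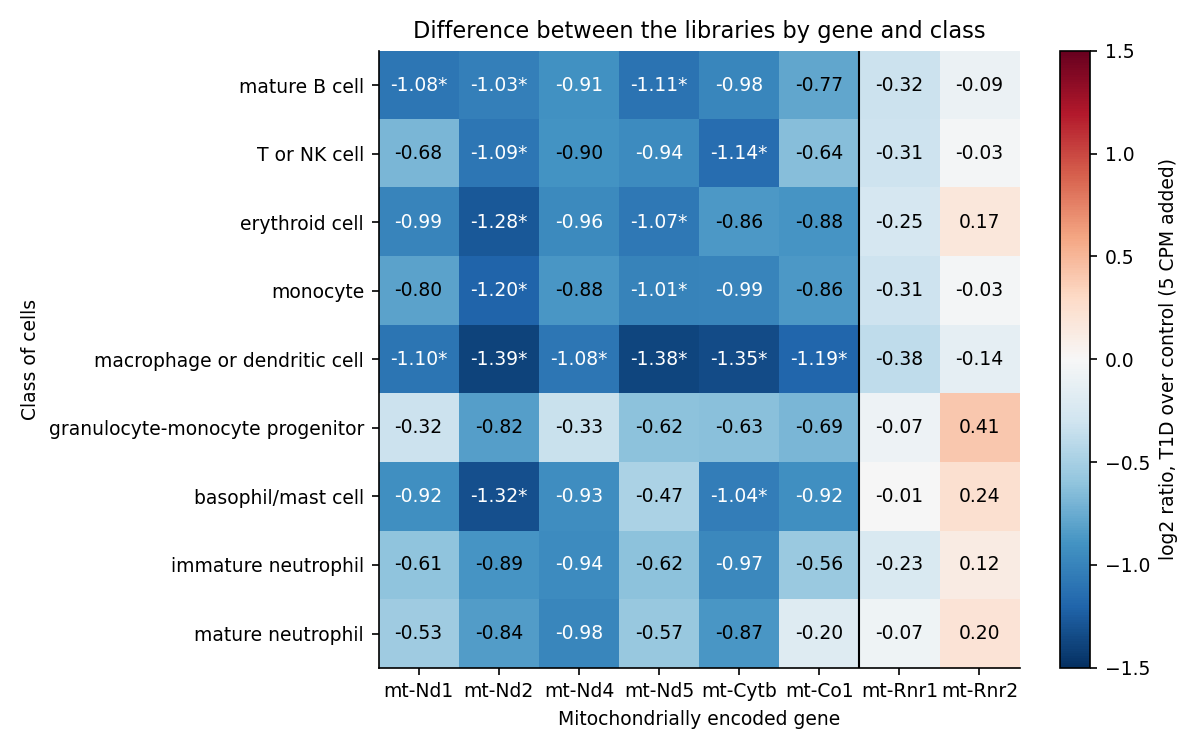
Log2 ratio of T1D over control (5 CPM added) for 8 of the 10 genes in the 9 classes, with an asterisk where the size rule was passed. mt-Co3 and mt-Atp6, near 0 counts, are left out. The 6 messengers left of the line are below 0 in each class, from -1.39 to -0.20, and mt-Rnr2 takes both signs.

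The same quantity was read cell by cell. In monocytes, the median cell had 14.4 protein-coding counts per 10000 in T1D and 29.4 in control, with quartiles of 8.10 and 23.2 in T1D and 18.6 and 43.3 in control, so that the cells of the 2 libraries overlap. In mature B cells the medians were 25.6 per 10000 in T1D and 57.0 in control, and in mature neutrophils 3.29 in T1D and 4.48 in control. The median was lower in T1D in 9 of 9 classes for messengers and in 4 of 9 for ribosomal RNA.

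Because T1D cells were shallower, cells of like depth were compared. Over all kept cells the protein-coding level was lower in T1D in 5 of 5 ranges of total counts, with log2 ratios from -1.68 under 2000 counts to -0.59 at 10000 counts or more. The range under 2000 counts is not of like depth, since the lowest kept total was 1369 in T1D and 1904 in control. It held 4047 T1D and 499 control cells. In the next range, from 2000 to under 3000 counts, the log2 ratio was -1.32. Among cells of at least 3000 and under 5000 counts it was 1219 CPM in T1D and 2512 CPM in control. Within monocytes, immature and mature neutrophils the protein-coding level was lower in 12 of 12 ranges, from -1.07 to -0.21. The -1.07, in immature neutrophils under 2000 counts, rests on 42 control cells. Over the 10 ranges with at least 100 cells in both libraries the log2 ratio ran from -0.98 to -0.21. The ribosomal RNA level was lower in T1D in 5 of 5 ranges over all kept cells, from -0.43 to -0.11, and in 8 of 12 ranges within the 3 classes. It was lower in each range of monocytes (-0.50 to -0.27) and of immature neutrophils (-0.21 to -0.09). In mature neutrophils it was higher in each range (0.01 to 0.17). Immature neutrophils as a class had a log2 ratio of 0.06, so their direction turned within ranges of depth. With each cell thinned to 1000 counts, the log2 ratio of the protein-coding sum was -1.19. With nuclear ribosomal RNA left out of the totals it was -1.03.

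Barcodes over the limit of 20% mitochondrial counts, left out above, numbered 58 of 15771 in T1D and 66 of 12880 in control. Their mitochondrial counts were mostly ribosomal RNA as well: protein-coding counts came to 5.21% of ribosomal RNA counts in T1D and 8.33% in control.

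3 clusters without a name were compared by number. A cluster led by Fcnb, Cdc25a and Ccne2, with markers of both progenitors and immature neutrophils, had a protein-coding level of 1339 CPM in T1D and 2271 CPM in control, with 0 of the 10 genes past the size rule (background 0.184% lower and 0.811% higher). A cluster led by Nt5e, Mmp9 and Mmp8, with markers of both immature and mature neutrophils, had 558 CPM in T1D and 798 CPM in control, with mt-Nd2 as the 1 gene past the rule (0.665% and 0.972%). A cluster led by Pf4, Angpt1 and Itga2b, holding 7 markers of stem and multipotent progenitor cells, had 2311 CPM in T1D and 4726 CPM in control, and mt-Nd2, mt-Nd4, mt-Nd5 and mt-Cytb were lower past the rule, against 0.848% of all genes lower and 2.09% higher. In that cluster the ribosomal RNAs were lower too, with 18223 CPM in T1D and 25752 CPM in control, a log2 ratio of -0.50, beyond that of any of the 9 classes. mt-Rnr1 stood there at -0.71 and mt-Rnr2 at -0.45. Its share of nuclear ribosomal RNA was 26.9% in both libraries, and its median total 4674 counts in T1D and 5509 in control.

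Classes below 100 cells in either library are given as values. Plasmacytoid dendritic cells (92 T1D and 491 control cells) had a protein-coding level of 2077 CPM in T1D and 4792 CPM in control. Plasma cells (89 and 70 cells) had 1199 CPM in T1D and 1971 CPM in control, and stromal/osteolineage cells (13 and 17 cells) 1892 CPM in T1D and 4070 CPM in control. The ribosomal RNA level was lower in T1D plasmacytoid dendritic cells, with 25586 CPM against 31749 CPM in control, and higher in T1D in the other 2. The control pro/pre-B cells had 3809 CPM of messengers and 35744 CPM of ribosomal RNA.

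The nuclear genes of the respiratory chain and ATP synthase were lower by less. Of 77 nuclear subunits of the respiratory chain and ATP synthase, 57 reached 50 CPM over all kept cells. Of these, 50 were below a ratio of 1 and 7 above, where 60.1% of all genes were below. In either direction 0 were past the size rule, where 2.55% of all genes were lower and 0.936% higher. The median log2 ratio of the subunits was -0.31, between the -1.17 of the mitochondrial messengers and the -0.08 of all genes. By class, those lower past the rule were 5 of 51 at 50 CPM or more in basophil/mast cells, where 4.36% of all genes were, and 7 of 56 in macrophages or dendritic cells, against 5.71%. They were 4 of 42 in mature B cells, against 5.54%, and 1 of 69 in erythroid cells, against 0.91%. They were 0 of 47 in T or NK cells (2.1%), 0 of 69 in granulocyte-monocyte progenitors (0.636%) and 0 of 64 in monocytes (0.934%). They were also 0 of 39 in immature (0.373%) and 0 of 20 in mature neutrophils (2.52%). None was higher past the rule in any class. Among those lower past the rule, Ndufs8, a complex I subunit, had 12.7 CPM in T1D and 56.2 CPM in control macrophages or dendritic cells. Ndufa13, also of complex I, had 37.7 CPM in T1D and 117 CPM in control basophil/mast cells. Cox7a2, a complex IV subunit, was past the rule in 3 classes, with 86.7 CPM in T1D and 184 CPM in control erythroid cells. The T1D values rest on 5 counts for Ndufs8 and 15 for Ndufa13.

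Genes that make, process and translate mitochondrial RNA were mostly too low to judge. None of 21 genes of mitochondrial transcription and DNA maintenance reached 50 CPM over all kept cells. Tfam, which packages mitochondrial DNA and starts its transcription, had 18.8 CPM in T1D and 26.2 CPM in control, a ratio of 0.720 (0.663 to 0.781). Within classes Tfam took both sides: its ratio was 0.686 (0.499 to 0.932) in erythroid cells and 0.766 (0.619 to 0.947) in granulocyte-monocyte progenitors, 41.1 CPM in both libraries in mature B cells, and 1.20 (0.844 to 1.70) in immature and 1.32 (0.665 to 2.81) in mature neutrophils. Polrmt, the mitochondrial RNA polymerase, had 2.55 CPM in T1D and 4.56 CPM in control, a ratio of 0.561 (0.451 to 0.694). By class its interval was clear of no difference only in monocytes, with 0.583 (0.385 to 0.871). Lrpprc, which stabilises mitochondrial messengers, had 37.8 CPM in T1D and 41.5 CPM in control, a ratio of 0.909 (0.856 to 0.966), but it was higher in T1D in immature neutrophils, with 12.4 CPM in T1D and 8.29 CPM in control (interval of the ratio 1.09 to 2.06), and in mature neutrophils, with a ratio of 2.25 (1.22 to 4.47). Grsf1, which binds mitochondrial RNA, had 35.5 CPM in T1D and 31.8 CPM in control, a ratio of 1.12 (1.05 to 1.19). Esrra, a nuclear receptor that drives mitochondrial genes, had 6.19 CPM in T1D and 4.63 CPM in control, a ratio of 1.34 (1.13 to 1.58). By class its interval was clear of no difference only in mature neutrophils, with 1.72 (1.10 to 2.77). Tufm, the mitochondrial translation elongation factor, had 402 counts in T1D and 862 in control, a ratio of levels of 0.517 (0.458 to 0.583). Its ratio was 0.628 (0.498 to 0.788) in monocytes, 0.613 (0.479 to 0.782) in granulocyte-monocyte progenitors and 0.461 (0.290 to 0.712) in erythroid cells. The interval included no difference in immature neutrophils (ratio 0.979), mature neutrophils (1.17) and macrophages or dendritic cells (0.673). The pooled ratio thus also carries the mix of cells. Of 77 mitochondrial ribosomal proteins 6 reached 50 CPM, 5 below a ratio of 1 and 1 above, with 0 past the rule. Of all genes at that level 60.1% were below a ratio of 1. More ribosomal proteins reached it in some classes. In erythroid cells 38 of 41 were below a ratio of 1, against 53.6% of all genes, and 3 were lower past the rule, against 0.91%. In granulocyte-monocyte progenitors 33 of 37 were below a ratio of 1, against 58.7% of all genes, and 0 were past the rule, against 0.636% lower. In the quality control list 7 of 20 reached 50 CPM over all kept cells, 4 below a ratio of 1 and 3 above. Of these 7, 1 was lower past the rule, where 2.55% of all genes were: Hspe1, the mitochondrial co-chaperonin, with 54.4 CPM in T1D and 123 CPM in control. Of 31 genes of mitochondrial RNA processing 1 reached 50 CPM, and of 16 translation factors 2 did, all 3 below a ratio of 1. Of 12 regulators of biogenesis 2 did, 1 on each side. In macrophages or dendritic cells 1 of 7 mitochondrial ribosomal proteins was lower past the rule and 1 higher, and 2 of 8 quality control genes were higher, against 5.71% of all genes in each direction. There Mrps9, a mitochondrial ribosomal protein, had 63.3 CPM in T1D and 24.1 CPM in control, and Hspa9, the mitochondrial chaperone of the Hsp70 family, 159 CPM in T1D and 76.3 CPM in control.

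Levels over the 18 points of 9 classes in 2 libraries were compared with those of 2675 genes at or above the level minimum. Each Pearson r was taken on the log2 of CPM with 5 CPM added. It is a description, since points share a library and its depth. The protein-coding sum was most like cytosolic ribosomal protein genes: Rps27 (Pearson r 0.943), Rpl19 (0.942), Fau (0.929), Rpl36 (0.923) and Rps19 (0.922). The ribosomal RNA sum was most like Btg1 (0.904), Crebrf (0.897), CT010467.1 (0.892), Stk17b (0.887) and Skil (0.867), of which CT010467.1 is counted here as nuclear ribosomal RNA. The protein-coding and ribosomal RNA sums had a Pearson r of -0.01 with each other over the same 18 points. This holds for the log scale only, and an r of CPM without the log was not taken.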

How the data were processed

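Both deposited tables give raw counts, whole numbers for each gene in each barcode. The submitters' processing notes name bcl2fastq 2.19, featureCounts and build mm9. Not given in the sources used here are the aligner, the annotation, cell calling, strand, and the handling of molecular identifiers and of multiply matching reads. Libraries were made with the Singleron GEXSCOPE kit, per the labels' protocols. Lengths and sequences are from GENCODE M21 (GRCm38), and coordinates are left out because that is not the submitters' build.

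The members, lists and comparisons were chosen with earlier results of these data known. A gene in 1 table only was set to 0 in the other; 22384 genes were in both. Barcodes under 200 genes or over 20% mitochondrial counts were left out. Clusters came from 30 principal components of 3257 variable genes (mitochondrial genes left out), 15 neighbours and Leiden partition with igraph 0.11.9 at resolution 1, the best modularity of 10 starts. A name needed at least 3 of its markers, from 21 sets, at 2-fold excess and 50 CPM. That globins do not count toward a name, that T and NK cells and macrophages and dendritic cells are merged, and that a cluster holding markers of more than 1 lineage stays unnamed was set after clusters were seen. No doublet caller was run. Depth was 51680532 kept counts in T1D and 57296558 in control.

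Counts were summed per library and class. CPM have exact Poisson intervals, ratios of levels conditional binomial and shares Clopper-Pearson intervals (scipy 1.17.1). The log2 ratios of protein-coding over ribosomal RNA counts and of mt-Rnr1 over mt-Rnr2 counts have normal-approximation intervals. The size rule was tested on simulated data. All 10 members are named, with every other mitochondrial messenger and transfer RNA beyond its limits by value, and list members past the rule by size. Alternatives covered cell filters, scaling (TMM in edgeR 4.0.16, DESeq2 1.42.0), thinning, free RNA subtraction, partitions, the CPM added and the level minimum; leaving out 1 cluster, leaving out mt-Co1 and mt-Nd4, and single clusters in place of classes were added after the data were seen.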

Additional observations from a re-analysis of the deposited data

Results flagged for a closer look

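The summed ribosomal RNA level differed in direction between classes, with each interval clear of no difference. The ratio of T1D over control was 0.943 in T or NK cells, 0.886 in macrophages or dendritic cells, 0.912 in mature B cells and 0.945 in monocytes. It was 1.15 in basophil/mast cells, 1.05 in erythroid cells, 1.23 in granulocyte-monocyte progenitors, 1.04 in immature neutrophils and 1.12 in mature neutrophils. The difference between these 2 sets of classes was not tested. Single clusters went against their class in 3 cases, with intervals clear of no difference: 1.08 in the larger T or NK cluster, 1.08 in a mature B cluster and 0.954 in an immature neutrophil cluster. The class ratio of T or NK cells lay below those of both its clusters. The mature B class also turned, to a log2 ratio of 0.0003, with DESeq2 scaling. The T1D and control mature neutrophils lay mostly in different clusters, and T1D cells were shallower in each class. Within ranges of total counts, immature neutrophils were lower in T1D in each range, against the direction of their class.

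3 mitochondrial transfer RNAs outside the 10 genes were above control, against the direction of the messengers. The ratio of T1D over control was 1.61 for mt-Tq (585 T1D and 402 control counts), 1.41 for mt-Tp (244 and 192) and 1.66 for mt-Tv (78 and 52). mt-Te went the other way, with 678 T1D and 1036 control counts and a ratio of 0.726. So did mt-Ti, with 6 T1D and 18 control counts and a ratio of 0.370 (0.120 to 0.972). Each of the other transfer RNAs had at most 42 counts in a library.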

How the results depend on the processing

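No result below replaces a second library per group, and intervals cover counting error only. Messengers with copies in the nucleus, rare classes and genes of mitochondrial RNA metabolism are limited by depth or by shared sequence. No paired analysis was possible because each group has 1 library. All values here are log2 ratios of T1D over control unless named as counts, and the causes of the shifts were not tested.

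The protein-coding sum (-1.11) stayed below 0 in 13 of 13 alternatives: -1.07 with at least 500 genes per cell, -1.10 with a limit of 10%, -1.08 for cells at or above the lowest control total, -0.87 with class shares set to control, -1.19 thinned and -1.19 as a mean over cells, -1.03 without nuclear ribosomal RNA in the totals, -0.99 with TMM, -0.98 with DESeq2 and -1.23 without mt-Co1 and mt-Nd4. The ribosomal RNA sum (-0.02) took both signs under the same settings: -0.14, -0.01 (-0.011), -0.18, 0.05 (0.053), -0.0027 thinned, -0.0036 as a mean over cells, 0.06 (0.057), 0.10 with TMM and 0.11 with DESeq2; it was -0.03 (-0.033) with no limit and -0.08 (-0.082) without a cluster of 689 T1D and 54 control cells led by Prg2 and globins. Their ratio (-1.09) was -0.94 with 500 genes, -0.90 at or above the lowest control total, -0.93 with class shares set to control, -1.19 thinned and as a mean over cells, -1.22 without mt-Co1 and mt-Nd4 and -1.03 without that cluster. The setting with class shares set to control holds only the 9 compared classes, so it also changes which cells are summed.

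With at least 500 genes per cell, 8 classes were left and 11 values of single genes were past the size rule, against 17 in 9 classes. Over 9 other random starts of the partition, 4 to 6 classes had a lower ribosomal RNA level, and the protein-coding level was lower in each of the 9 or 10 classes compared. Subtracting free RNA at the level set by globins (10.1% of T1D and 8.31% of control counts) or, lower, by plasma cell genes left the counts of classes with a lower level within 1.5 times.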
